A study of Mus musculus with 6 samples.

Results

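The chaperone genes described here were all genes of the array whose single annotated symbol begins with Hsp followed by a, b, d, e or h and a digit, with Hsp90, or with Dnaj, other than Hspb7. The rule found 69 of the 19938 genes measured, 24 heat shock protein (HSP) genes and 45 DNAJ genes, each represented by its brightest probe set. By symbol they fell into HSP90 (2 genes), HSP70 (10), HSP110 (3), the mitochondrial chaperonin (2), small HSP (7), DNAJA (4), DNAJB (13) and DNAJC (28). Transcripts were measured in skin of male inbred BALB/c mice aged 5 to 6 weeks, with 2 arrays each of intact skin, of wounds taken 1 day after injury and of wounds taken 4 days after injury. Every wounded mouse received 2 punch wounds of 4 mm on its shaved back, which spared the fascia, and each biopsy of 8 mm took the wound with the surrounding skin; intact skin was sampled with the same punch. Replicates are described as biological, with no word on how many animals stand behind each, so p-values measure the spread between these samples only, which may be technical. Values are log2 intensities as deposited, and differences between groups are on the same log2 scale.

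HSP70 proteins bind exposed hydrophobic stretches of unfolded proteins and release them in a cycle driven by ATP. DNAJ proteins deliver the clients and speed the ATPase step, HSP110 proteins exchange the nucleotide, HSP90 proteins finish selected clients such as kinases and steroid receptors, and small HSPs hold unfolded proteins without using ATP. Heat and proteotoxic stress raise a subset of these genes through the factor HSF1, and protein load in the endoplasmic reticulum raises another subset through the unfolded protein response. In skin, small HSPs and inducible HSP70 are known from differentiating and stressed keratinocytes, and several small HSPs are abundant in muscle.

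Promoter stretches are shown first, because the results below are ordered by the compartment and the known regulation of the genes. RefSeq starts of assembly GRCm38.p6 were found for 56 of the 69 genes (73 starts), and the 250 bases before each start were searched on both strands. The endoplasmic reticulum stress element, CCAAT and CCACG with 9 bases of any kind between them, was present before the starts of Hspa5, Hsp90b1 and Dnajc3, that is in 4.11% of the chaperone promoters and in 0.113% of all 32851 promoters. The stretches below, with the element in capitals, lie upstream of the starts of these genes, which encode the endoplasmic reticulum HSP70, its HSP90 and a lumenal DNAJ protein.
Hspa5 (chr2:34772010-34772058, plus strand): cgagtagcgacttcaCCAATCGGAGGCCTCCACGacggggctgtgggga
Hsp90b1 (chr10:86705518-86705671, minus strand): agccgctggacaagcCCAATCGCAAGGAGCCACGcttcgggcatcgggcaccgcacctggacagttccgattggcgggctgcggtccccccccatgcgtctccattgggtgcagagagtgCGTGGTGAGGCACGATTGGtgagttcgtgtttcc
Dnajc3 (chr14:118937812-118937860, plus strand): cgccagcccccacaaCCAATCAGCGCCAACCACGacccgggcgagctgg

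The 3-unit heat shock element, GAA, TTC and GAA (or TTC, GAA and TTC) with 2 bases of any kind between the units, was present before Hspd1, Hspe1 and Dnajb6, in 5.48% of chaperone promoters against 0.466% of all. Hspd1 and Hspe1 are transcribed away from each other, and the same element lies before both starts. The 2-unit form GAANNTTC, which the 3-unit form contains, was found before 10 members, among them Hspa1a, Hspb1 and Hspb6, and in 15.1% of chaperone promoters against 6.69% of all. Capitals mark the match in the stretches below, chosen because these genes are described in detail below. A match describes the letters in this window and not a bound site.
Hspd1 (chr1:55088044-55088091, minus strand): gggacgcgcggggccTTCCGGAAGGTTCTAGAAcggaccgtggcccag
Hspa1a (chr17:34972238-34972275, minus strand): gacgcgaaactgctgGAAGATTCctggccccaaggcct
Hspb1 (chr5:135887787-135887844, plus strand): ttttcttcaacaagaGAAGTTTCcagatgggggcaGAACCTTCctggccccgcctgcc
Hspb6 (chr7:30553166-30553203, plus strand): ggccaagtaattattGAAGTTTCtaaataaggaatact

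The 6 arrays had medians of 6.89 to 6.93 (log2), and replicates correlated over all genes with r of 0.9861 to 0.9967 (genes are not independent replicates). The skin label was checked against epidermal keratinocyte markers, of which 7 of 8 were measured, with list means of 11.60 to 11.99 on all arrays. Hair follicle markers (10 genes) had a mean of 11.48 and 11.49 on the intact arrays, 7.92 and 6.11 on day 1 and 9.82 and 6.40 on day 4, so the wound arrays numbered 2 held less hair follicle signal than those numbered 1, with 1 of the 10 markers under the lower quartile there. Skeletal muscle markers (12 genes) had means of 10.25 and 10.22 in intact skin, 11.03 and 11.08 on day 1 and 10.61 and 10.89 on day 4, and 10 of them rose on day 1. Summed over the list, intensities of the muscle markers lay at 18875 to 19210 in intact skin, 31568 to 32392 on day 1 and 22876 to 27046 on day 4. None of the 12 lay under an array's lower quartile. In such whole biopsies a larger number of cells of a type and more RNA per cell cannot be told apart.

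As a whole the chaperone genes were called at shares near those of all genes. On day 1, 12 of the 69 rose and 9 fell against intact skin (limma, Benjamini-Hochberg adjusted over all genes, threshold 0.05), which is 30.4% where 29.3% of all genes were called. On day 4, 9 rose and 8 fell, 24.6% against 26.9% of all genes, and between the days 1 was higher and 1 lower on day 4, 2.9% against 2.23% (1.09% of all genes higher and 1.14% lower). The median log2 difference of the 69 was 0.02 on day 1 and 0.06 on day 4, beside −0.04 and −0.03 over all genes. Of the members 42 were called on neither day (60.9%, against 64% of all genes), 4 rose on both days (5.8% against 10.9%) and 7 fell on both (10.1% against 9.24%). Calls of a single day were 8 rises (11.6% against 3.75%) and 2 falls (2.9% against 5.34%) on day 1. On day 4 they were 5 rises (7.25% against 3.87%) and 1 fall (1.45% against 2.85%). Such a call means only that the other day missed the threshold: Dnajc1, called on day 1 alone, differed by 0.305 and 0.28. Of these genes only Hspb6 and Hspa1a were also called between the days. Both comparisons share the intact arrays. By class, the shares called on day 1 and day 4 were 60% and 50% in HSP70 and 42.9% and 28.6% in small HSP. They were 38.5% and 15.4% in DNAJB, 25% and 21.4% in DNAJC, and 0% on both days in DNAJA and the chaperonin. HSP90 and HSP110 had 0% on day 1 and 50% and 33.3% on day 4. Of these classes HSP90, HSP110, DNAJA and the chaperonin hold only 2 to 4 genes. Leaving out an array of the groups compared lowered most counts: on day 1, 3 rises were called without day 1 wound replicate 2 or without intact skin replicate 1, and 5 when intact skin replicate 2 was dropped, while falls numbered 5, 6 and 6. Falls on day 1 also numbered 6 without day 1 wound replicate 1. On day 4, 3 rises and 3 falls were called without intact skin replicate 1, 5 of each when intact skin replicate 2 was dropped, and 6 rises without day 4 wound replicate 1. Without either day 1 array the day 4 rises numbered 11. Calls kept in every alternative that tested the gene were those of Hspa13, Dnajb4, Hspa14, Dnajb2, Dnajb3, Dnajc6 and Dnajc7 on day 1 and of Hspa1a, Hspa2, Hspa13, Dnajb2, Dnajb4 and Dnajc6 on day 4.

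**Figure D1:**
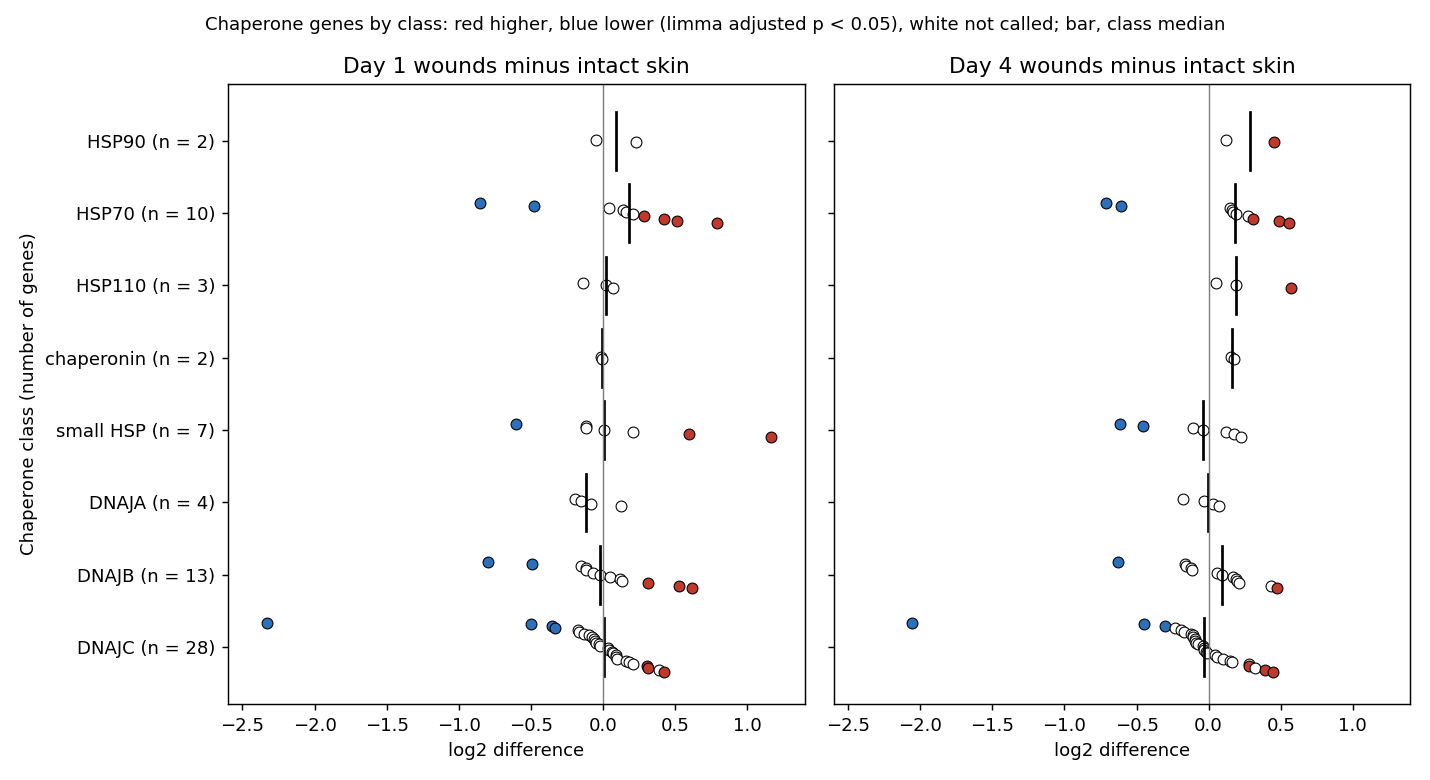
Log2 differences of all 69 chaperone genes by class, day 1 wounds against intact skin (left) and day 4 wounds against intact skin (right). Each point is a gene, red where limma called it higher, blue where lower and white where not called, and bars are class medians; Dnajc6 stands lowest at −2.33 and −2.06, and Hspb6 highest on day 1 at 1.17.

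Of 8 measured heat-inducible cytosolic chaperones 1 rose on day 1 (Dnajb4) and none fell, with a group median of −0.04, where 14.7% of all genes rose and 14.6% fell. On day 4, 3 rose and 1 fell, with a median of 0.20, where 14.8% of all genes rose and 12.1% fell. Hspa1a, the inducible cytosolic HSP70, stood at 9.93 and 9.91 in intact skin, 10.02 and 9.90 on day 1 and 10.40 and 10.41 on day 4. Both day 4 arrays lay above all others, while day 1 and intact arrays overlapped. The day 4 rise was 1.4-fold (log2 difference 0.49, SE 0.08, adjusted p = 0.00581 by limma) and held in all 15 alternatives. Against day 1 it was 0.45 higher (SE 0.08, limma adjusted p = 0.0456), a call lost in 10 of 15 alternatives, among them the loss of any 1 of the 6 arrays, with adjusted p up to 0.206. A further probe set, which names Hspa1a together with its near-identical copy Hspa1b and was therefore not used, had 10.68 and 10.73 in intact skin, 10.46 and 10.45 on day 1 and 10.75 and 10.84 on day 4. It was 0.34 higher on day 4 than on day 1 but only 0.09 above intact skin, so the rise over intact skin rests on the probe set of Hspa1a alone.

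Hsph1, the HSP110 protein that exchanges nucleotide on HSP70, stood at 8.27 and 8.28 in intact skin, 8.23 and 8.46 on day 1 and 8.95 and 8.74 on day 4. Its day 4 arrays lay above all the others, a 1.48-fold rise over intact skin (log2 difference 0.57, SE 0.11, limma adjusted p = 0.0124). The call was lost without day 4 wound replicate 1 or without either intact array, at differences of 0.47 to 0.58 and adjusted p up to 0.0777. Dnajb4, a cytosolic DNAJ protein of the heat-inducible kind, was already higher on day 1: 9.32 on both intact arrays, 9.81 and 9.88 on day 1, 9.78 and 9.81 on day 4. This was 1.44-fold on day 1 (limma adjusted p = 0.00273) and 1.39-fold on day 4 (adjusted p = 0.00489), with no overlap with intact skin.
The group did not move as one. Hspb1 (HSP27), the small HSP of keratinocytes, went the other way, at 12.23 and 12.18 in intact skin, 12.15 and 12.03 on day 1 and 11.76 and 11.74 on day 4. It fell by 0.46 on day 4 (SE 0.08, limma adjusted p = 0.00774), by about the same amount on its other probe set (−0.47), and the call was lost only without intact skin replicate 1 (−0.43, adjusted p = 0.0604). Hsp90aa1, the inducible cytosolic HSP90, was not called, with differences of −0.05 on day 1 and 0.12 on day 4 (SE 0.09 each). Dnajb1, the main DNAJ partner of inducible HSP70, differed by −0.02 and 0.21, and Dnaja1 by −0.20 and 0.03, neither called.

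Of 3 measured constitutive cytosolic chaperones 0 were called on day 1 and 1 on day 4, Hspa8, where 29.3% and 26.9% of all genes were called. Hspa8, the constantly made HSP70, stood at 12.44 and 12.45 in intact skin, 12.62 and 12.59 on day 1 and 12.78 and 12.72 on day 4. The day 4 arrays lay highest, and the difference was 1.24-fold (log2 difference 0.31, SE 0.07, limma adjusted p = 0.0227). Its 3 single-symbol probe sets were between 0.29 and 0.33 higher on day 4, and the call was lost under cyclic loess (0.21) and without any 1 array of intact skin or day 4. Hspa4 and Hspa4l, HSP110 proteins like Hsph1, were at 0.05 and 0.19 on day 4 and Dnaja2 at −0.04, none called. Hspa4l was counted above with the heat-inducible group. The pair Hspd1 and Hspe1, the mitochondrial chaperonin and its lid, which carry the 3-unit heat shock element shown above, differed by −0.02 and −0.01 on day 1 and 0.18 and 0.16 on day 4. The other probe set of Hspd1 differed by 0.21 on day 1 and 0.24 on day 4, and that of Hspe1 by −0.02 and 0.13. The SEs of the sets used were 0.09, and limma called neither on any day, with 0 of the 2 at an unadjusted p under 0.05 in each comparison.

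Of 8 mitochondrial chaperones Hspa9, the matrix HSP70, rose on day 1 and Dnajc19, a subunit tied to the inner membrane import motor, fell, a share of 25% where 29.3% of all genes were called. On day 4 limma called 0 of the 8 (1 at an unadjusted p under 0.05), where 26.9% of all genes were called. Hspa9 stood at 10.26 and 10.20 in intact skin, 10.43 and 10.60 on day 1 and 10.44 and 10.40 on day 4. Its 1.22-fold day 1 difference (0.29, SE 0.09, limma adjusted p = 0.0487) was past the threshold in 6 of 15 alternatives. Dnajc19 was at 9.08 and 9.04 in intact skin, 8.73 and 8.72 on day 1 and 8.89 and 8.99 on day 4. It was 1.26-fold lower on day 1 (limma adjusted p = 0.0174), a call lost without either array of day 1 or of intact skin. Of the mitochondrial protein folding and quality genes outside the rule, 1 of 10 fell on day 1 and on day 4, Grpel2, a nucleotide exchange factor of Hspa9, by 0.34 and 0.37, and none rose. This was 10% on each day, where 29.3% and 26.9% of all genes were called.

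Of 8 chaperones of the endoplasmic reticulum 3 rose on each day and none fell, 37.5% where 14.7% and 14.8% of all genes rose. The differences of all 8 were above 0 on both days, from 0.05 (Dnajb11 on day 1), with medians of 0.27 and 0.38, and 5 of the 8 were not called on each day. Hspa13, a microsomal HSP70 without a client-binding domain, stood at 8.13 and 8.06 in intact skin, 8.56 and 8.66 on day 1 and 8.65 and 8.66 on day 4. All 4 wound arrays lay above both intact arrays. It rose 1.43-fold on day 1 (log2 difference 0.52, SE 0.08, limma adjusted p = 0.00373) and 1.47-fold on day 4 (adjusted p = 0.00343), in every alternative. Dnajb9, a lumenal DNAJ protein made in the unfolded protein response, was at 9.42 and 9.52 in intact skin, 9.89 and 10.28 on day 1 and 9.82 and 9.98 on day 4. The day 1 arrays differed from each other by more than the intact arrays did, and the 1.53-fold rise (0.62, SE 0.14, limma adjusted p = 0.0185) was lost without day 1 wound replicate 2 (0.42) or without either intact array (adjusted p up to 0.110). On day 4 Dnajb9 was not called (0.43, limma adjusted p = 0.0646), though 4 of 15 alternatives called it (adjusted p up to 0.253 over all of them), and the difference between the days was not called either (−0.19, adjusted p = 0.533). Dnajc1, which docks at ribosomes on the reticulum, rose 1.24-fold on day 1 (adjusted p = 0.0491) and lost the call in 8 of 15 alternatives, among them the loss of any 1 of the 6 arrays.

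On day 4 the called members were Hspa13, Hsp90b1 and Dnajc10. Hsp90b1, the HSP90 of the reticulum, stood at 10.85 and 10.73 in intact skin, 10.97 and 11.07 on day 1 and 11.37 and 11.12 on day 4. All wound arrays lay above the intact arrays, and the day 4 rise was 1.37-fold (0.46, SE 0.11, limma adjusted p = 0.0239), lost without day 4 wound replicate 1 (0.33) or without either intact array (adjusted p up to 0.123). Dnajc10, a disulfide reductase with a J domain, was at 8.28 and 8.40 in intact skin, 8.47 and 8.57 on day 1 and 8.78 and 8.79 on day 4. It rose 1.36-fold on day 4 (0.45, SE 0.08, limma adjusted p = 0.00989), a call lost only without intact skin replicate 1 (0.39, adjusted p = 0.0709). Hspa5 (BiP), the HSP70 of the reticulum, was at 11.53 and 11.45 in intact skin, 11.54 and 11.72 on day 1 and 11.88 and 11.65 on day 4, with a day 4 difference of 0.28 that was not called (SE 0.11, adjusted p = 0.112). Dnajc3, an inhibitor of the kinase Eif2ak3, was 0.39 higher on day 1 and 0.33 on day 4. Neither difference was called, though 6 of the 15 alternatives called it on day 1 and 4 on day 4. Of the 3 promoters with the stress element, that of Hsp90b1 belonged to a called gene.

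Of 23 genes of endoplasmic reticulum folding and of the unfolded protein response outside the rule, 7 rose on day 1 and 8 on day 4 and none fell, with medians of 0.18 and 0.19. These were 30.4% and 34.8% of the list, where 14.7% and 14.8% of all genes rose. Uncalled differences lay on both sides of 0, for example −0.11 for Sec61b on day 1 and −0.17 for Ern1 on day 4. Herpud1, a component of the degradation machinery of the reticulum, stood at 9.64 and 9.55 in intact skin, 10.16 and 10.11 on day 1 and 10.37 and 10.52 on day 4 (1.80-fold on day 4, limma adjusted p = 0.00125). P4hb, protein disulfide isomerase and a subunit of the collagen prolyl hydroxylase, rose by 0.47 and 0.65, Ddit3, a transcription factor of prolonged stress, by 0.58 and 0.62, and the response factor Xbp1 by 0.45 and 0.29. Of 7 fibroblast markers 4 rose on day 1 and 5 on day 4, with list means of 10.60 and 10.71 in intact skin, 11.07 and 11.45 on day 1 and 11.51 and 11.56 on day 4, and all 8 neutrophil markers rose, from means of 6.16 and 6.39 to 10.73 and 11.14 on day 1. Of 5 plasma cell markers 1 fell on day 1, and 2 rose and 1 fell on day 4. All 8 monocyte and macrophage markers rose on both days, at medians of 1.87 and 2.14, and 5 of 6 endothelial markers rose on each day. The part of these cell types in the chaperone differences was not tested.

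**Figure D2:**
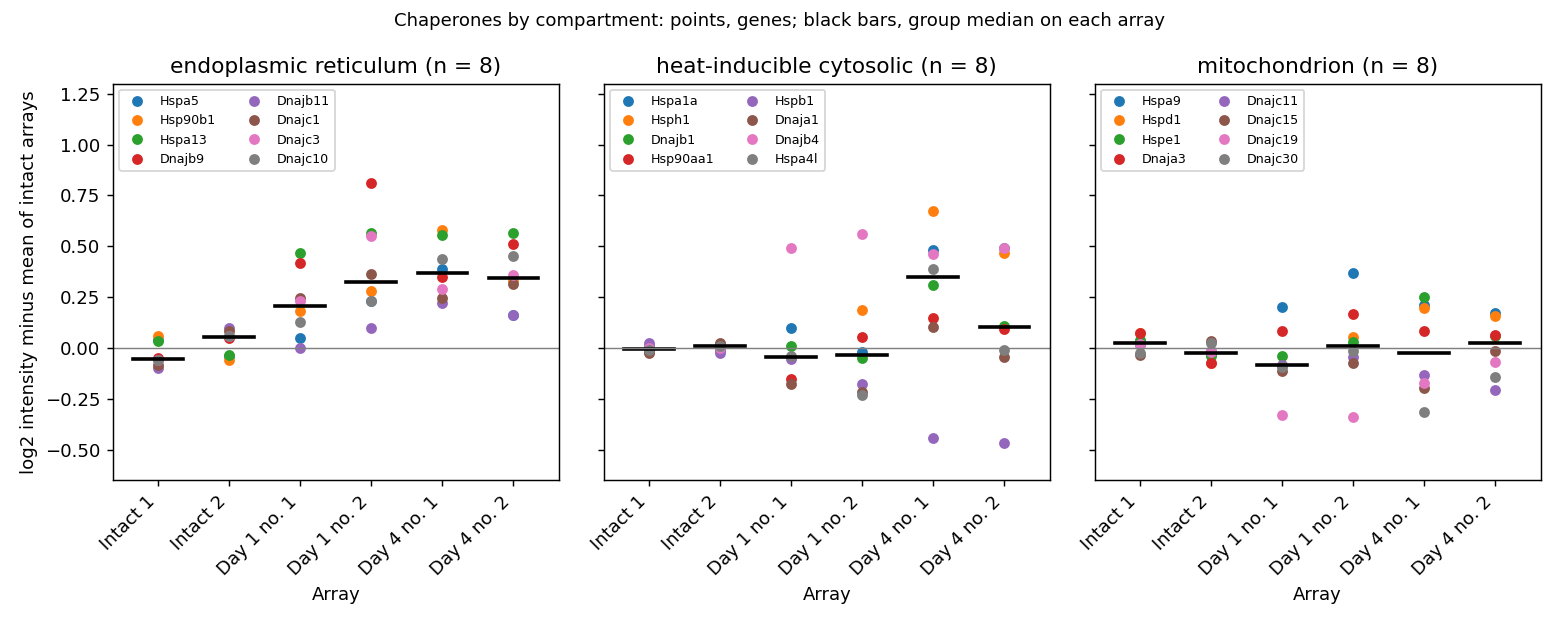
Log2 intensity minus the mean of the intact arrays on each of the 6 arrays, for chaperones of the endoplasmic reticulum, heat-inducible cytosolic chaperones and mitochondrial chaperones (8 genes each). Points are genes and black bars the median on that array: the reticulum medians are 0.21 and 0.32 on day 1 and 0.37 and 0.35 on day 4, the heat-inducible ones −0.04 and −0.04 and then 0.35 and 0.10, and the mitochondrial ones lie between −0.09 and 0.03.

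The small HSP genes held the largest rise among the chaperones, and they diverged. Hspb6 (HSP20), abundant in muscle, stood at 10.94 and 11.08 in intact skin, 12.19 and 12.16 on day 1 and 10.64 and 11.30 on day 4. Both day 1 arrays lay above every other array, and the day 4 arrays fell on either side of the intact ones. The day 1 rise was 2.24-fold (log2 difference 1.17, SE 0.20, limma adjusted p = 0.00674), and day 4 was 2.31-fold lower than day 1 (−1.21, adjusted p = 0.0436). The day 1 call was lost only without intact skin replicate 1 (adjusted p = 0.0556), and the difference between the days was lost in 6 of 15 alternatives, among them the loss of any array but day 4 wound replicate 2, with differences of −1.54 to −0.88 over all alternatives and adjusted p up to 0.205. Hspb2, a partner of the myotonic dystrophy kinase, was likewise highest on day 1, with 7.70 and 7.52 in intact skin, 8.15 and 8.26 on day 1 and 7.63 and 7.94 on day 4. It rose 1.51-fold on day 1 (0.60, limma adjusted p = 0.014; 0.54 without day 1 wound replicate 2 and 0.51 without intact skin replicate 2, neither called). Hspb3, a further muscle small HSP, was 0.21 and 0.12 higher and not called. The 4 muscle-enriched small HSPs, Hspb2, Hspb3, Hspb6 and Hspb8, did not move as one. On day 1, 2 rose and 1 (Hspb8) fell, where 14.7% of all genes rose and 14.6% fell. On day 4, 0 rose and 1 (Hspb8) fell, where 14.8% of all genes rose and 12.1% fell. The group medians were 0.40 and 0.04.

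Hspb8, also counted as muscle-enriched, works with the cochaperone Bag3 in disposal of misfolded proteins and fell on both days. Among the small HSPs Hspb1 fell as well, on day 4 (−0.46), while Hspb6 and Hspb2 rose on day 1. Hspb8 stood at 10.32 and 10.42 in intact skin, 9.79 and 9.75 on day 1 and 9.60 and 9.91 on day 4. No wound array reached the intact arrays, and the falls were 1.52-fold on day 1 and 1.53-fold on day 4 (limma adjusted p = 0.00973 and 0.0107). Both calls were lost without intact skin replicate 2 (adjusted p up to 0.0714), that of day 1 also without day 1 wound replicate 2 and that of day 4 without intact skin replicate 1. Hspb9, a testis gene, and Hspb11, a protein of ciliary transport despite its name, were called in neither comparison, with differences between −0.12 and 0.23.

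Hspa1l, the HSP70 relative known from the testis, was also highest on day 1: 6.61 and 6.67 in intact skin, 7.39 and 7.47 on day 1, and 6.59 and 7.03 on day 4. It rose 1.73-fold on day 1 (0.79, SE 0.14, limma adjusted p = 0.00816; lost without day 1 wound replicate 2 or intact skin replicate 1), while its difference between the days was not called (−0.62, adjusted p = 0.0865). Cryab, a small HSP outside the rule that is abundant in muscle and lens, stood at 10.46 and 10.58 in intact skin, a mean of 11.03 over both day 1 arrays and 9.96 and 10.34 on day 4. It rose by 0.51 on day 1 (limma adjusted p = 0.0304) and was 0.88 lower on day 4 than on day 1 (adjusted p = 0.0361). In all 4 genes day 4 wound replicate 1 was lower than replicate 2, as it was for the skeletal muscle markers (10.61 against 10.89). The mean of the muscle markers was above intact skin on both day 4 arrays. On day 4 replicate 1 Hspb6, Cryab and, narrowly, Hspa1l (6.59 against 6.61 and 6.67) were below both intact arrays, and Hspb2 lay between them. Cryab was below both intact arrays on day 4 replicate 2 as well. The part of muscle in these differences was not tested.

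**Figure D3:**
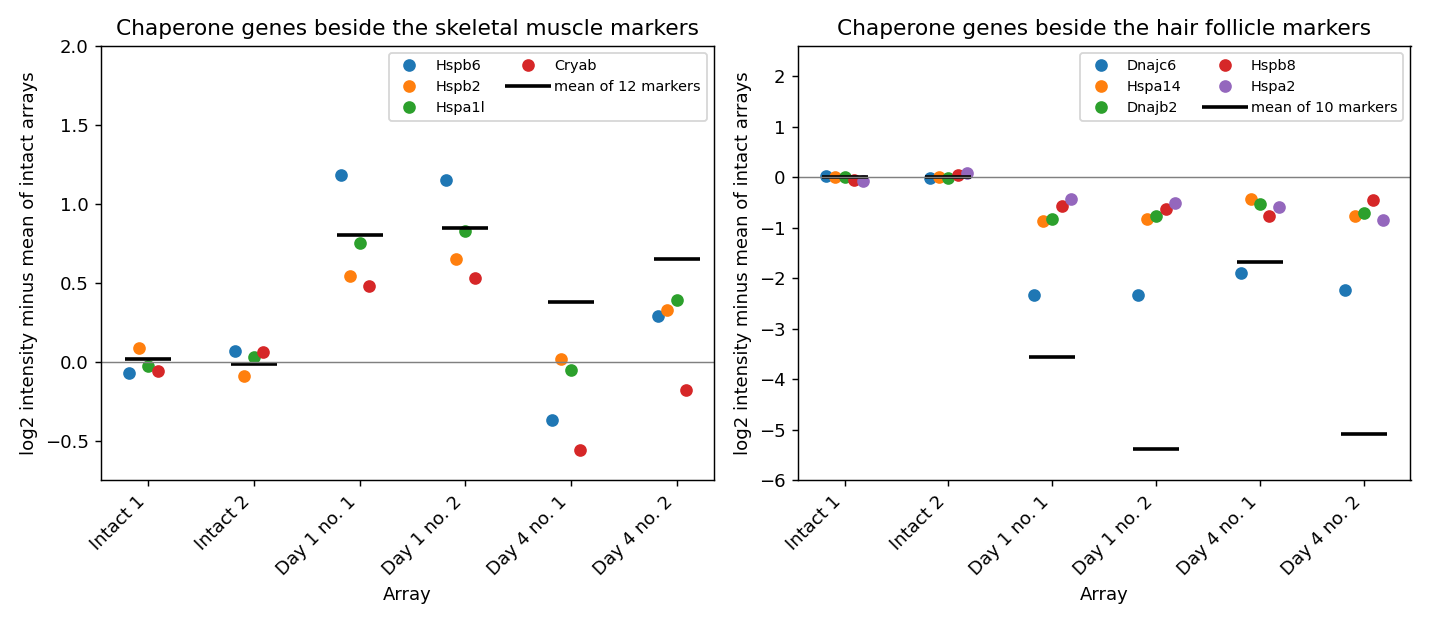
Left, Hspb6, Hspb2, Hspa1l and Cryab, and right, Dnajc6, Hspa14, Dnajb2, Hspb8 and Hspa2, as log2 intensity minus the mean of the intact arrays, on each of the 6 arrays. Hspb8 is also counted as a muscle-enriched small HSP, and Dnajc7 and Dnajc17, which fell on both days too, are not shown. Black dashes are the mean of the skeletal muscle markers (left, 12 genes) and of the hair follicle markers (right, 10 genes); on day 4 wound replicate 1 Hspb6 lay below its own intact values (10.64 against 10.94 and 11.08) and the muscle mean above its own (10.61 against 10.25 and 10.22).

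The deepest fall was that of Dnajc6 (auxilin), which recruits HSP70 to strip clathrin from vesicles and is best known from neurons. It stood at 9.11 and 9.08 in intact skin, 6.76 and 6.77 on day 1 and 7.20 and 6.87 on day 4. The highest wound array, at 7.20, lay well under both intact arrays. It was 5.03-fold lower on day 1 (−2.33, SE 0.12, limma adjusted p = 8.07e-05) and 4.17-fold lower on day 4 (−2.06, adjusted p = 2.16e-04), in every alternative. Hspa14, an HSP70 relative of the ribosome-associated complex, was at 9.24 and 9.25 in intact skin, 8.37 and 8.42 on day 1 and 8.81 and 8.47 on day 4, 1.80-fold lower on day 1 (adjusted p = 0.00296) and 1.52-fold on day 4 (adjusted p = 0.0126 by limma; not called without either intact array). Dnajb2, a neuronal DNAJ protein that sorts clients to the proteasome, fell from 9.32 and 9.30 to 8.49 and 8.54 on day 1 and 8.77 and 8.60 on day 4. This was 1.74-fold and 1.54-fold (limma adjusted p = 0.00109 and 0.00336), in every alternative. Hspa2, an HSP70 of the testis that epidermis also makes, fell from 8.87 and 9.03 to 8.51 and 8.43 and then 8.36 and 8.11, by 0.48 on day 1 (limma adjusted p = 0.0192; not called without any 1 array of day 1 or intact skin) and by 0.72 on day 4 (adjusted p = 0.00532).
Of 10 hair follicle markers 9 fell on day 1 and 4 on day 4, at medians of −4.59 and −3.39, and their mean was higher on replicate 1 than on replicate 2 of day 4 (9.82 against 6.40). The 7 chaperone genes lower on both days differed in this. On day 4 replicate 1 was also the higher array for Dnajc6, Hspa14, Dnajb2, Hspa2 and Dnajc7 (9.08 against 8.95). It was the lower one for Hspb8 and Dnajc17 (8.10 against 8.20). On day 1 the hair follicle mean was likewise higher on replicate 1 (7.92 against 6.11), but Dnajc6, Hspa14 and Dnajb2 were lower on that replicate, by 0.05 or less. Hspb8, Hspa2, Dnajc7 (8.82 against 8.81) and Dnajc17 (8.25 against 8.24) were higher on it. The part of the hair follicle in these falls was not tested.

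The other DNAJ calls were smaller. Dnajc7, a DNAJ protein that bridges HSP70 and HSP90, fell by 0.50 on day 1 (limma adjusted p = 0.00495) and 0.30 on day 4 (adjusted p = 0.0353, lost in 6 alternatives, among them the loss of any array but day 4 wound replicate 1). Dnajc17, a nuclear member, fell by 0.35 and 0.45, and its day 1 call was lost without any 1 array of day 1 or intact skin, that of day 4 without intact skin replicate 1 (adjusted p = 0.0560). Dnajb3, a testis member near the lower quartile of the arrays, fell by 0.50 on day 1 from 5.64 and 5.70 to 5.21 and 5.14, and on day 4 was at 5.58 and 5.43 (not called). Of the risers, Dnajc13, an endosomal member, was 1.24-fold and 1.31-fold higher (limma adjusted p = 0.021 and 0.0108), and all 15 of its probe sets were higher on both days, by 0.08 to 0.40 and by 0.10 to 0.51. Its day 1 call was lost without any 1 array of day 1 or intact skin, its day 4 call without intact skin replicate 1. Dnajc5, the cysteine string protein of vesicles, stood at 9.77 and 9.80 in intact skin, 10.15 and 10.26 on day 1 and 10.04 and 10.09 on day 4, and rose 1.34-fold and 1.21-fold (limma adjusted p = 0.00821 and 0.0385). The first call was lost without day 1 wound replicate 2 or intact skin replicate 1, the second under median centring and without any 1 array of day 4 or intact skin. Hspa12a, a distant HSP70 relative, rose 1.34-fold on day 1 (adjusted p = 0.0336) and Dnajb5 1.24-fold at the threshold itself. Both calls were lost without any 1 array of day 1 or intact skin. Between day 4 and day 1 limma called 0 of 45 DNAJ genes, with 7 at an unadjusted p under 0.05. Of all 19938 genes 2.23% were called in that comparison, and 3765 had an unadjusted p under 0.05.

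**Figure D4:**
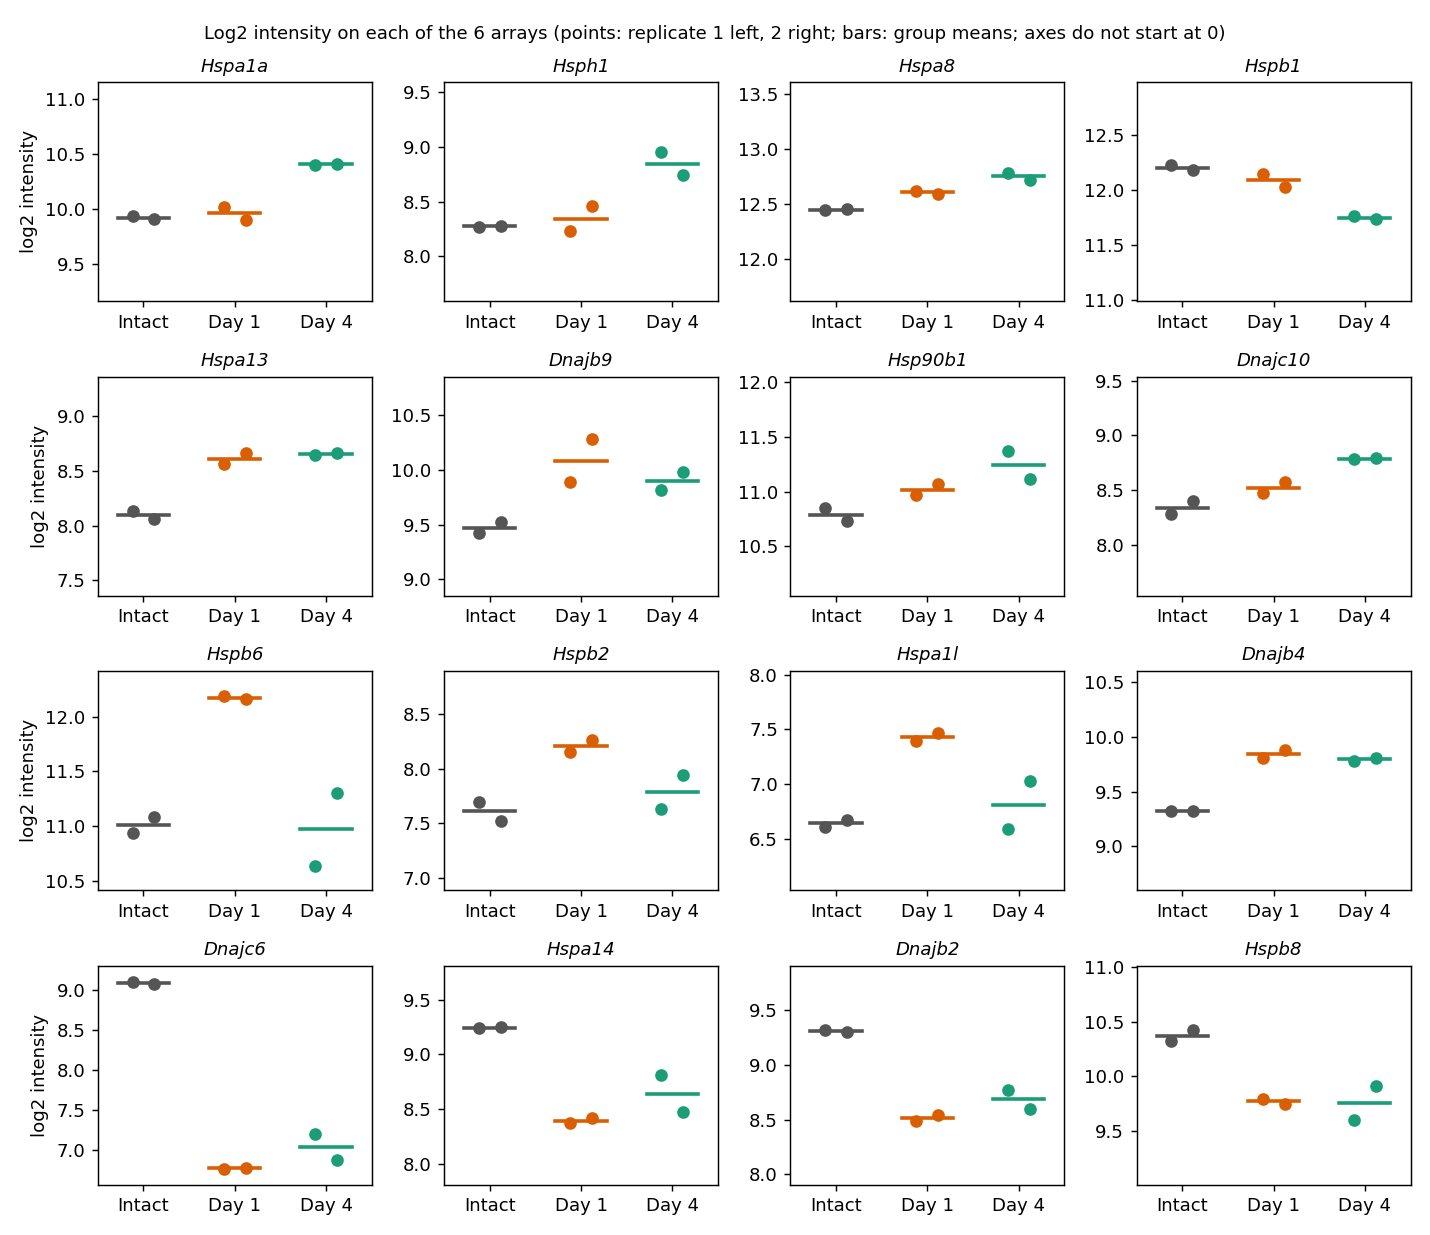
Log2 intensity of 16 chaperone genes on each array, with replicate 1 left and replicate 2 right in each group and bars for the group means; the axes do not start at 0. The day 4 arrays are highest for Hspa1a (10.40 and 10.41) and Hsph1 (8.95 and 8.74), the day 1 arrays for Hspb6 (12.19 and 12.16), and the intact arrays for Dnajc6 (9.11 and 9.08).

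Partners and regulators of the chaperones outside the rule gave a mixed picture. Of 24 measured genes of HSF and cochaperones 5 rose and 2 fell on day 1 and 6 rose and 4 fell on day 4, at medians of 0.00 and −0.01. These calls were 29.2% and 41.7% of the list, where 29.3% and 26.9% of all genes were called. Fkbp5, an HSP90 cochaperone of steroid receptors that glucocorticoids induce, had the largest rise, from 7.41 and 7.69 in intact skin to 9.45 and 9.44 on day 1 and 9.10 and 9.30 on day 4. It was 3.72-fold higher on day 1 and 3.14-fold on day 4 (limma adjusted p = 1.74e-04 and 4.20e-04). Serpinh1 (HSP47), the collagen chaperone of the endoplasmic reticulum, rose by 0.61 and 0.76. Chordc1 and Ahsa1, HSP90 cochaperones, were at 0.01 and −0.02 on day 1 and rose by 0.48 and 0.28 on day 4 (limma adjusted p = 0.00779 and 0.0409). Between the days 1 of the 24 genes was higher on day 4, Chordc1 (0.47, limma adjusted p = 0.0474). The 1 lower gene was Cryab (−0.88, limma adjusted p = 0.0361). Of all genes 1.09% were higher and 1.14% lower in that comparison. Bag2, a nucleotide exchange factor of HSP70, fell by 0.70 on both days, and Bag3, the partner of Hspb8, was at 0.14 and −0.22 and not called. Of 14 genes of the cytosolic chaperonin and prefoldin, Cct7 and Pfdn1 fell on day 1, Pfdn1 on day 4, and none rose. The shares called were 14.3% and 7.14%, below those of all genes.

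Members not named here were called in no comparison, and 3 genes (Dnajb7, Dnajc5b and Dnajc5g) lay under the lower quartile on all 6 arrays. Some members also had probe sets that they share with other symbols, and these went in both directions. Dnajb6, a DNAJ protein that suppresses aggregation, was at 6.40 and 6.66 in intact skin on its own probe set and not called, whereas the 4 probe sets it shares with a predicted gene lay between 10.70 and 11.25 and were 0.22 to 0.28 higher on day 4. A pair of probe sets with identical values, shared by Hspa8 with small nucleolar RNAs of its introns, stood at 10.04 and 10.03 in intact skin, 10.27 and 10.49 on day 1 and 10.81 and 10.63 on day 4, a difference of 0.69 on day 4. A set shared by Dnaja1 with a microRNA symbol stood at 10.80 and 10.81 in intact skin, 10.42 and 10.29 on day 1 and 10.52 and 10.35 on day 4. Its differences were −0.45 and −0.37. Of the 2 sets of Dnaja1 alone, the brighter gave −0.20 and 0.03 and the other −0.30 and −0.095. The pair that Dnajb14 shares with Pin4 was at −0.12 on day 4. These shared probe sets were not tested.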

How the data were processed

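Total RNA from 6 skin samples, 2 in each group, was measured on Affymetrix mouse gene arrays. The authors deposited log2 intensity values for each probe set. RMA made them, per the submitters' processing notes, and its version was not stated in any label or header; RMA brings arrays to a common distribution. Of 35556 probe sets 21789 carried 1 symbol, and the brightest per gene gave 19938 genes. All 69 members matched RefSeq (GRCm38.p6) by symbol. limma 3.58.1 (R 4.3.3) was fitted to all 6 arrays with 1 mean for each group and eBayes (3 residual and 3.4 prior degrees of freedom), with two-sided p-values adjusted by Benjamini-Hochberg over all genes, and tested on simulated data. Alternatives were 3 scalings, a trend or robust prior, a fit to the compared groups alone, no dimmest 30% of genes, the mean of a gene's probe sets, a replicate block and the loss of each array. With so few arrays all values have limited precision.

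The members and lists were chosen with earlier results of these data known. Every HSP gene could be named; of DNAJ genes, the 8 largest called rises and falls in each comparison and the brightest 3 of each class; of other lists, up to 4 called genes with the smallest p in each comparison. Dnajb1, Dnajb6, Dnajb11, Dnajb14, Ahsa1, Bag3, Sec61b, Ern1 and the genes under the lower quartile were named after their values were seen. Hspa1b, Hsp90ab1, Hsf1 and protein sequences were not analysed here.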

Additional observations from a re-analysis of the deposited data

Results flagged for a closer look

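The wound effect differed between the days for 2 chaperone genes by the test of day 4 against day 1 wounds itself. Hspb6 was 1.21 lower on the log2 scale on day 4 than on day 1 (a difference of −1.205, limma adjusted p = 0.0436), with day 1 arrays at 12.19 and 12.16 and day 4 arrays at 10.64 and 11.30. Hspa1a was 0.445 higher on day 4 (limma adjusted p = 0.0456), with day 1 arrays at 10.02 and 9.90 and day 4 arrays at 10.40 and 10.41. Both were lower or higher on 2 of 2 day 4 arrays, and both calls were lost in several alternatives given with the gene.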

How the results depend on the processing

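No difference past the threshold changed sign in any alternative. The 4 counts of chaperone genes higher or lower than intact skin stayed within 1.5 times their values in the alternatives that kept all arrays. Without 1 array they ranged from 3 to 10 (higher on day 1), 5 to 9 (lower on day 1), 3 to 11 (higher on day 4) and 3 to 8 (lower on day 4). The single gene higher on day 4 than on day 1 (Hspa1a) became 0 under cyclic loess, median centring, the replicate block and with only the arrays of those groups, and was 0 without any 1 array. The single gene lower (Hspb6) became 2 with a mean-variance trend, 0 with only the arrays of those groups, and 0 to 2 without 1 array. Fewer arrays leave fewer degrees of freedom; the cause of the other shifts was not tested. With the replicate block, 12 genes were higher and 9 lower on day 1, 12 and 8 on day 4, and 0 and 1 between the days. The block added Dnajb9, Dnajc1 and Dnajc3 on day 4, so that 6 of 8 reticulum genes were called higher in place of 3. The labels do not say that numbers pair samples; deviations of same-numbered arrays correlated at 0.6853 between the wound groups but 0.0139 and 0.0227 with intact skin (over genes). Scaling moved the median of all genes by less than 0.1.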
